A study of Mus musculus with 2 samples.

Results

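The actin and contractile cytoskeleton genes Acta2, Actb, Tagln, Cnn1, Cnn2, Myl9, Myh9, Tpm1, Tpm2 and Vcl were measured in cultured mouse chondrocytes, once before a bout of cyclic tensile strain and once 24 h later. These 10 genes were taken by name, with no filter on their values, out of 20660 genes that the array's probes could be matched to. The list was, however, chosen with earlier results of these data known. All 10 were measured, by 17 probes in all, and every one of these probes passed the software's flag for signal well above background before and after loading.

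The study asked which genes respond when chondrocytes are loaded, and used expression arrays to compare cells before and after loading. The cells were primary chondrocytes of C57BL/6J mice that were 6 days old, plated in fibronectin-coated silicon stretch chambers. After 48 h in the chambers, strain of 10% elongation at 0.5 Hz was given for 30 min. RNA taken before the loading was hybridised to 1 array, and RNA taken 24 h after it to the other array on the same slide. No genotype or drug differed between the arrays, and how many mice or chambers went into each RNA is not given in the sources used here. With 1 array per time point, no difference below could be checked in a replicate, and neither a test nor a p-value is given. The control RNA was taken before loading, so that the effect of strain and that of the further 24 h in culture cannot be told apart. In RNA of a whole culture, fewer cells of a type and less RNA per cell cannot be told apart either.

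Actin monomers assemble into filaments, and non-muscle myosin II pulls on these filaments to give the cell its tension. Tropomyosins and calponins lie along the filaments and regulate that pull, and focal adhesions tie the filament ends to the matrix outside. In cultured chondrocytes, thick actin bundles and smooth muscle actin are known features of flattened cells that are losing the round cartilage shape. Many of these genes are controlled by serum response factor (SRF), which binds a DNA element called the CArG box and works with coactivators that sense free actin.

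The values are the scanner software's background-subtracted intensities in arbitrary units. Ratios are log2 of 24 h after over before loading, with each array set to its 75th percentile, which lay at 466.37 before loading and at 466.15 at 24 h. A gene with several probes is represented by its brightest. The error printed with a ratio is the software's own error of both spots and covers within-array error only. It was 0.20 for most of the probes below, and was not made smaller for a probe with several spots. For these probes a limit of 2 such errors is thus close to a fixed size of difference. Probes that are printed at least 8 times on the array give a second view of the technical spread, since over 264 such probes the median SD of the ratio among a probe's own spots was 0.09. On both arrays 14231 genes passed this flag and are called detected, and their median log2 ratio was -0.01.

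The label of the cells was checked first. All 11 chondrocyte markers were above background on both arrays, with a summed intensity of 1279000 before loading and 1276000 at 24 h. Col2a1, the main cartilage collagen, gave 499543 before loading and 474876 at 24 h. Acan, the large proteoglycan of cartilage, gave 71350 before and 89998 after, and Sox9, the transcription factor that drives chondrocyte identity, gave 9965 and 11610. Col2a1 and Comp, a cartilage matrix protein with 205261 and 179115, made up the larger part of the summed intensity. Single markers differed in both directions within that sum. Col11a1, a minor cartilage collagen, was the lowest, with 107657 before and 60799 after, a log2 ratio of -0.82 that was past 1.5-fold in all 11 alternative settings. Matn1, a cartilage matrilin, was the highest, with 87822 and 129093 and a ratio of 0.56.

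The 10 genes showed only modest differences, and these ran both ways. Their log2 ratios lay between -0.57 for Tagln and 0.36 for Tpm1, with a median of -0.05 that became 0.04 when each array was scaled by its median instead, and 4 genes were above 0 and 6 below. None of the 10 was more than 2-fold or more than 1.5-fold apart in either direction. Over all detected genes, 0.668% were more than 2-fold higher at 24 h and 1.83% more than 2-fold lower. At 1.5-fold the shares were 3.65% higher and 5.84% lower, and beside shares this small the count of 0 in 10 is not a result about the list. A looser limit, a ratio more than 2 within-array errors from 0, was added after the values were seen. By it 2 of the 10 genes, Acta2 and Tagln, were lower and 0 were higher, where 9.12% of all detected genes were lower and 7.24% higher. With median scaling, or with scaling to the spike-in controls, Myl9 and Tpm1 also passed this limit, as 2 genes that were higher.

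**Figure D1:**
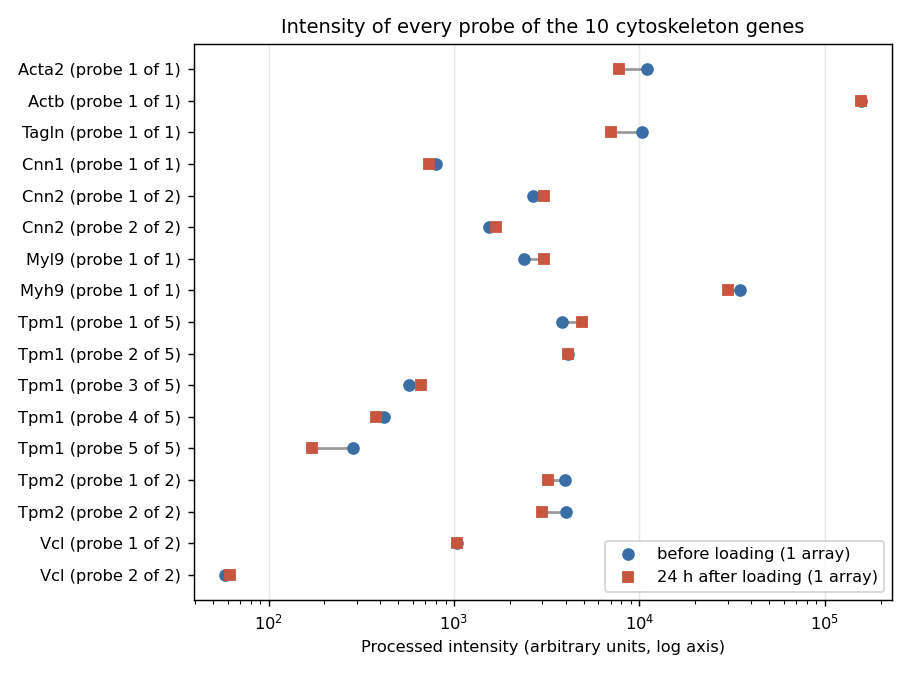
Intensity of each of the 17 probes of the 10 genes (x axis, log scale, arbitrary units), with circles for the array before loading and squares for the array 24 h after it. The points of a probe lie close together for most genes and are farthest apart for the dimmest Tpm1 probe, with 284 and 172, and for Tagln and Acta2. Levels of different probes cannot be set against each other.

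Promoter sequence is shown because the CArG box is the element through which this family is best known to be regulated. The 250 bases before the RefSeq transcription start were searched on GRCm38.p6 for a CArG box, which is a pair of C, then 6 bases that are A or T, then a pair of G. This form reads the same way on both strands. Promoters of 8 of the 10 genes were at hand, without Actb and Tagln. For each of these genes 1 transcription start was used, and windows before its other starts were not searched. The annotated spans of Acta2, Cnn1, Myl9, Tpm1, Tpm2 and Vcl begin upstream of the start used. The matches below in Acta2 and Tpm1 lie inside those spans, and those in Myl9 and Vcl outside them. An exact box was found in Cnn2, Myl9 and Vcl, which is 3 of 8, against 1.47% of 32851 promoters. With 1 mismatch allowed, Acta2 and Tpm1 joined them to make 5 of 8, against 18.6% of promoters. Since the family is known for this element, a share above that of all promoters comes with the choice of genes. Each line gives 30 bases on the gene's strand, with the box in capitals.

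Acta2, 1 mismatch, chr19:34255438-34255467, minus strand: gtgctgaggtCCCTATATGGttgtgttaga
Acta2, 1 mismatch, chr19:34255388-34255417, minus strand: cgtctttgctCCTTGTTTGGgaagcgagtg
Cnn2, exact, chr10:79988534-79988563, plus strand: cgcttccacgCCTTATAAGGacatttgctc
Myl9, exact, chr2:156775293-156775322, plus strand: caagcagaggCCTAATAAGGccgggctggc
Myl9, 1 mismatch, chr2:156775355-156775384, plus strand: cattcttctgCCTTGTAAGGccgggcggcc
Tpm1, 1 mismatch, chr9:67049415-67049444, minus strand: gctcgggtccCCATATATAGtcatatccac
Tpm1, 1 mismatch, chr9:67049274-67049303, minus strand: acaagcttttCCAAAAAAGTattggctgtc
Vcl, exact, chr14:20929161-20929190, plus strand: cccactatgcCCTTATAAGGagcgccccgc

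The windows of Cnn1, Myh9 and Tpm2 held no such letters, which says nothing of whether SRF acts on these genes from elsewhere. A second muscle element, M-CAT (CATTCC, or GGAATG on the other strand), was present in Acta2, Tpm1 and Vcl and in 12.6% of all promoters. None of these overlapped a CArG match. A match is a description of letters and not a binding site. The 174 detected genes with an exact CArG box had a median log2 ratio of 0.00, and the 2111 with at most 1 mismatch had a median of -0.02, close to the -0.01 of all detected genes.

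Actins came first. Acta2 encodes smooth muscle alpha-actin, the isoform of contractile smooth muscle cells and myofibroblasts. Its probe (transcript NM_007392) is printed 10 times on the array. The 10 spots read from 10178 to 11757 before loading, with a median of 11014, and from 7327 to 8087 at 24 h, with a median of 7817. Every spot was dimmer at 24 h and the spots of the arrays did not overlap. The means of 11024 and 7735 gave a log2 ratio of -0.51 ± 0.20 (within-array error), which is 1.42-fold lower. The ratios of the single spots ran from -0.59 to -0.42 with an SD of 0.06, so that the probe was read precisely, although its spots share 1 RNA per time point. Of all detected genes, 7.43% had a lower ratio than Acta2.

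**Figure D2:**
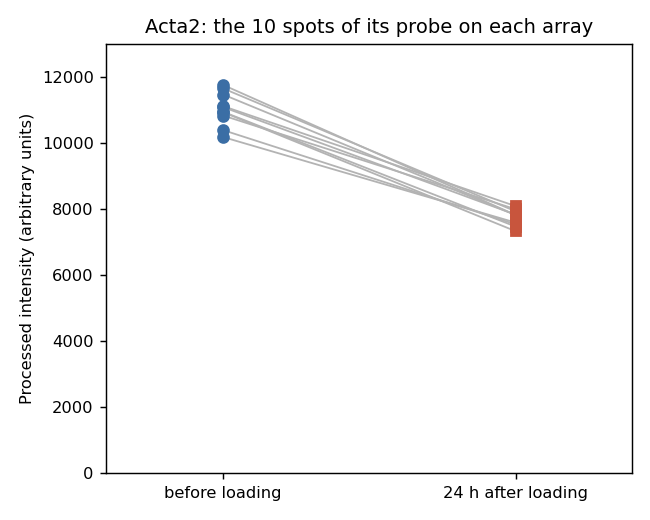
Intensity (y axis, arbitrary units, from 0) of the 10 spots of the Acta2 probe on the array before loading and on the array 24 h after it, with a line for each spot position. The lowest spot before loading, at 10178, lies above the highest at 24 h, at 8087.

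Actb encodes beta-actin, the cytoplasmic actin of nearly every cell and a common reference gene. It read 156129 before loading and 156046 at 24 h (NM_007393), a log2 ratio of -0.00 ± 0.20. The difference was smaller than the spread seen among repeated spots of a probe. This value depends on how the arrays are scaled and reached 0.17 in another setting, and its sign changed in 5 of 11. The ratio of Acta2 stayed between -0.51 and -0.41 over the same 11 settings.

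Of the 4 actin genes outside the 10, none was more than 2-fold apart. Actg2, the gamma-actin of smooth muscle, was the lowest, with 317 before loading and 173 at 24 h, a log2 ratio of -0.87 ± 0.21. Acta1, the actin of skeletal muscle, read 1001 and 806, a ratio of -0.31. Actc1, the actin of heart muscle, was the highest, with 423 and 507 and a ratio of 0.26. Actg1, the second cytoplasmic actin, had a ratio of 0.13, and its 5 probes ranged from 0.08 to 0.31. Actg2 alone of these passed 1.5-fold, and it did so in all 11 settings.

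Among the 10 genes, Tagln had the lowest ratio. It encodes transgelin (SM22), an actin-binding protein of the calponin family that marks early smooth muscle differentiation. Its 1 probe (NM_011526) read 10367 before loading and 6996 at 24 h. The log2 ratio was -0.57 ± 0.20, or 1.48-fold lower, just inside the limit of 1.5-fold, which lies at 0.58. Of all detected genes, 6.20% had a lower ratio. In the 11 settings it ran from -0.57 to -0.47.

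Cnn1, the calponin of smooth muscle, read 795 before loading and 737 at 24 h (NM_009922), a log2 ratio of -0.11 ± 0.20. Cnn2, the calponin of non-muscle cells, had a pair of probes (NM_007725). Its brighter probe read 2660 before and 3060 after, with a ratio of 0.20, and the other read 1540 and 1685, with a ratio of 0.13. Neither calponin lay more than 1 within-array error from 0.

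Tpm1 and Tpm2 encode tropomyosins, which run along the filament groove and decide which motors and regulators reach it. Tpm2 was measured by a pair of probes for the same transcript (NM_009416). The first read 3986 before loading and 3225 at 24 h, a log2 ratio of -0.31, and the second read 4005 and 2964, a ratio of -0.43. Both probes were lower at 24 h, and the second lay more than 2 within-array errors below 0.

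Tpm1 is a gene of many splice forms, and its 5 probes did not give 1 answer. The brightest over both arrays (NM_001164255) read 3809 before loading and 4875 at 24 h, a log2 ratio of 0.36 ± 0.20. The next (NM_001164249), which was the brightest before loading, read 4139 and 4124, a ratio of -0.00. The first lay less than 2 within-array errors above 0, and the second at 0.

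A pair of dimmer Tpm1 probes named for the same transcript (NM_001164248) read 573 and 665 in one case, a ratio of 0.22, and 418 and 379 in the other, a ratio of -0.14. The dimmest probe (NM_001164251) read 284 before and 172 after, a ratio of -0.72 ± 0.21. Its interval of 2 errors, -1.14 to -0.30, did not overlap that of the brightest probe, -0.05 to 0.76. Of the 17 probes it was the only 1 past 1.5-fold. The ratios of the 5 probes spanned 1.08 on the log2 scale, against a median span of 0.19 over 3635 genes with more than 1 detected probe. A span at least that wide was seen in 46 of these genes, or 1.27%, with Tpm1 itself counted. Among the 21 genes with at least 5 probes the median span was 0.37, and 2, of which Tpm1 was 1, had a span that wide. The files do not say where in the gene each probe lies, so the Tpm1 value stands for its brightest probe only. With the mean over its probes the log2 ratio was -0.06, and with the brightest probe before loading -0.0045.

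**Figure D3:**
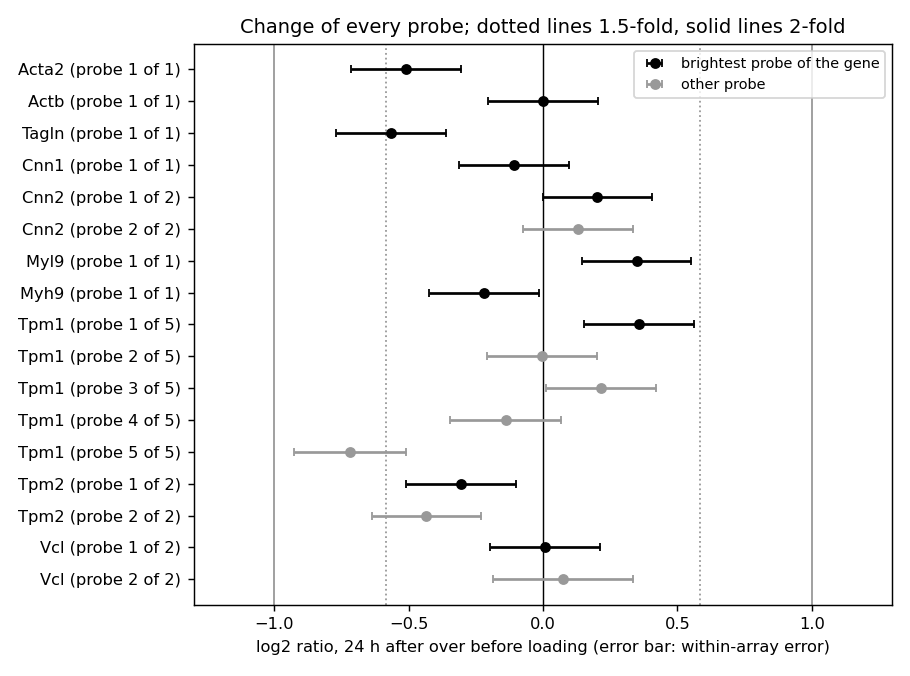
Log2 ratio of each of the 17 probes (x axis, 24 h after over before loading), with bars of 1 within-array error to each side, the brightest probe of a gene in black and its other probes in grey. Acta2, Tagln and both Tpm2 probes lie below 0, while the 5 Tpm1 probes spread from -0.72 to 0.36.

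Turning to the motor, Myh9 encodes the heavy chain of non-muscle myosin IIA and Myl9 a regulatory light chain whose phosphorylation switches the motor on. Myh9 read 34935 before loading and 30003 at 24 h (NM_022410), a log2 ratio of -0.22 ± 0.20. Myl9 read 2393 before and 3043 after (NM_172118), a ratio of 0.35 ± 0.20, or 1.27-fold higher. Myh9 and Myl9 thus lay on opposite sides of 0, each by less than 2 within-array errors. This was not a split of heavy against light chains. The other non-muscle heavy chains Myh10 and Myh14 had ratios of 0.43 and 0.29, and the regulatory light chains Myl12a and Myl12b 0.10 and 0.04.

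Of the 10 other myosin II genes and regulators, 9 were detected, with a median log2 ratio of 0.10, or 0.19 with median scaling. Myl6b, an essential light chain, was the highest, with 663 before loading and 1025 at 24 h and a ratio of 0.63, past 1.5-fold in all 11 settings. Ppp1r12a, the targeting subunit of myosin phosphatase, was the lowest, with 4340 and 3980 and a ratio of -0.12. Myh11, the heavy chain of smooth muscle, was not well above background.

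Vcl encodes vinculin, the focal adhesion protein that couples actin filaments to integrins under tension. Its brighter probe (NM_009502) read 1037 before loading and 1042 at 24 h, a log2 ratio of 0.01 ± 0.20. The second probe, a dim one, read 58.5 and 61.5, a ratio of 0.07 ± 0.26. Neither probe differed beyond its error. Among 16 detected focal adhesion genes of 17 listed, 0 were past 1.5-fold, and the median was 0.04, or 0.14 with median scaling. The extremes were Pdlim5, an actin-linked PDZ and LIM protein, with 533 and 397 and a ratio of -0.42, and Tns1, a tensin, with 4409 and 5655 and a ratio of 0.36. The other Pdlim5 probes, both much dimmer, had ratios of 0.25 and 0.43.

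The wider actin machinery was described by 7 lists of other genes, 74 in all, of which 70 were detected. Their median log2 ratio was 0.01, with 36 above 0 and 34 below. More than 1.5-fold higher was 1 gene, or 1.43%, and more than 1.5-fold lower were 5, or 7.14%, beside 3.65% and 5.84% of all detected genes. More than 2-fold lower was 1 gene, or 1.43%, and more than 2-fold higher were 0.

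That gene was Diaph3, a formin that nucleates and elongates actin filaments. It read 404 before loading and 157 at 24 h, a log2 ratio of -1.36 ± 0.21, and it was past 2-fold in all 11 settings, with -1.08 at the smallest, under normexp background correction. The 20 genes of filament assembly and turnover had a median of -0.01, or 0.09 with median scaling, and Pfn2, a profilin, was the highest, with 3714 and 5064 and a ratio of 0.45.

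In the tropomyosin, calponin and transgelin list, 6 of 7 genes were detected and the median log2 ratio was -0.07, or 0.02 with median scaling. Tagln2, the transgelin of non-muscle cells, was the lowest, with 45311 before loading and 28860 at 24 h and a ratio of -0.65 ± 0.20, and its second probe gave -0.39. It stayed past 1.5-fold in 6 of 11 settings. Smtn, smoothelin, was the highest of the list, with 6370 and 7089 and a ratio of 0.15.

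The 11 filament crosslinkers had a median of 0.01, or 0.11 with median scaling. Palld, palladin, was the highest, with 2273 before loading and 2771 at 24 h and a ratio of 0.29. Synpo2, a myopodin, was the lowest at -0.72, but its probe was dim at 62.8 and 38.2, and normexp gave -0.30.

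For SRF and its coactivators, 4 of 5 genes were detected, with a median log2 ratio of -0.20, or -0.10 both with median scaling and with the mean over probes. Srf itself read 1659 before loading and 1230 at 24 h, a ratio of -0.43 ± 0.20, while its second probe gave -0.08. Its actin-sensing coactivators Mrtfa and Mrtfb had ratios of 0.03 and 0.12. Fhl2, a LIM-domain protein known as both a target and a partner of SRF, was the lowest, with 4863 and 3136 and a ratio of -0.63 ± 0.20. Myocd, the coactivator of smooth muscle, was not well above background.

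**Figure D4:**
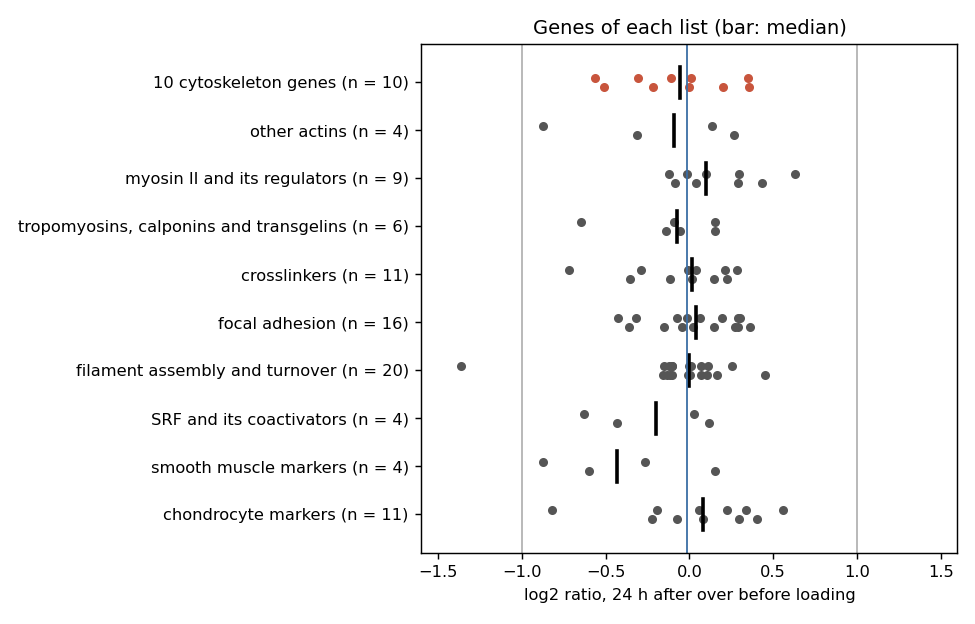
Log2 ratio (x axis, 24 h after over before loading) of the detected genes of each list, with 1 point per gene, a black bar at the median of each list, a blue line at the median of all detected genes and grey lines at 2-fold. The 10 cytoskeleton genes lie within 2-fold, and Diaph3 at -1.36 is the only gene drawn beyond it.

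Acta2 and Tagln are also markers of smooth muscle cells, so that list was read beside them. Of 8 further smooth muscle markers, 4 were detected, and Myh11, Lmod1, Des and Myocd, which define mature smooth muscle, were not well above background on both arrays. The summed intensity of the 8 genes was 7314 before loading and 7713 at 24 h, a sum carried mostly by Smtn. Of the detected ones, Actg2 had a log2 ratio of -0.87, Synm -0.60, Ldb3 -0.26 and Smtn 0.15. Of 8 fibroblast markers all were detected, with a summed intensity of 214900 and 218300, carried mostly by Col1a2 and Dcn. Of these markers 7 had a ratio above 0 and 1 below, and the highest were Dpt at 2.10 and Postn at 0.43. Of 6 pericyte markers 3 were detected, and Rgs5, Abcc9 and Kcnj8 were not well above background. The sums of 48620 and 47540 were carried mostly by Cspg4, with 22793 and 21812, and Mcam, with 21752 and 21958. Sums of different lists cannot be set against each other. The part of such cells in the values of Acta2 and Tagln was not tested.

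The spots around those of the 10 genes were inspected for local disturbance of the array surface. Each spot had 22 to 30 neighbours within 100 µm, of which at most 2 were more than 2-fold higher and at most 1 more than 2-fold lower. None of the 26 spots of the 17 probes was flagged as an outlier, and none was saturated.

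The order of the genes was largely kept across the settings. With 11 alternative ways of scaling, background correction, filtering and choosing probes, Acta2, Tagln, Cnn1, Myh9 and Tpm2 stayed below 0 and Cnn2, Myl9 and Vcl at or above 0. Actb and Tpm1 changed sign in at least 1 setting. None of the 10 passed 1.5-fold in any of them.

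**Figure D5:**
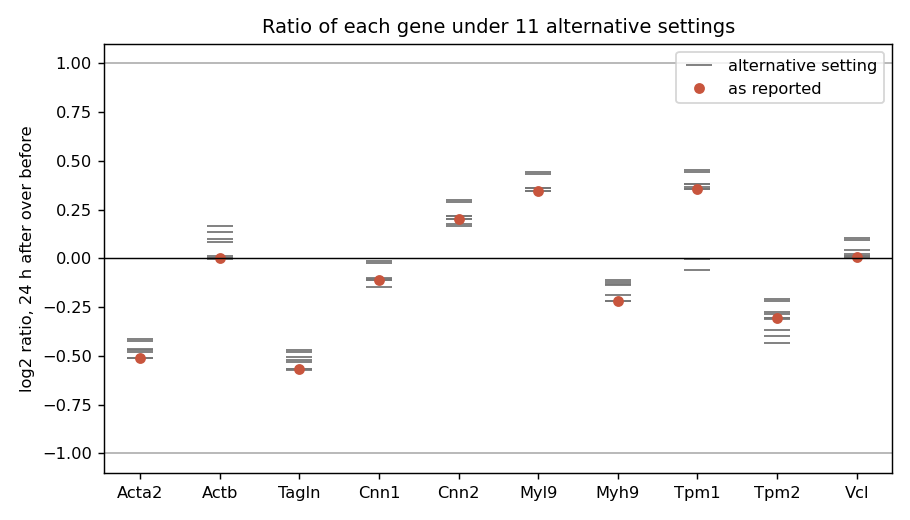
Log2 ratio of each of the 10 genes (y axis, 24 h after over before loading) as reported (red point) and under each of 11 alternative settings (grey dashes), with lines at 2-fold. Tagln and Acta2 stay lowest in every setting, and Tpm1 is spread widest, from -0.06 to 0.45.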

How the data were processed

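RNA from chondrocytes before and 24 h after loading was hybridised to 1 one-colour array each, on 1 slide. The authors deposited each spot's background-subtracted intensity from Feature Extraction 10.10.1.1, not normalized between arrays. A second deposited table held the same intensity values to within 0.497%. Outlier-flagged spots (141 and 138) were left out, spots of one probe were averaged on the log2 scale and each array's 75th percentile over 55678 probes was subtracted. Probes were named by accession through a RefSeq table of GRCm38.p6 (27235 matched). A gene is detected when its brightest probe carries the flag for signal well above background before and after loading. Of 59305 spots, 59.14% and 57.66% carried it. The number of arrays limits the precision, and no test was possible.

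Named genes are the 10 with every probe, the highest and lowest of each cytoskeleton list, any gene of a cytoskeleton or marker list past 2-fold, and Col2a1, Acan and Sox9. Other named genes were chosen after their values were seen. Members and lists were chosen with earlier results of these data known. Tgfb1i1 and Cd68 had no matched probe. One further gene list is not reported here. Normexp used the median spot signal, not the mean. Python 3.11.15, numpy 2.4.6, pandas 2.3.3, scipy 1.17.1, R 4.3.3 and limma 3.58.1 were used. The 2-fold calls were tested on simulated data whose built-in differences were larger than that limit. That run checked the code only, and did not cover the 1.5-fold limit, the limit of 2 within-array errors or the spread between cultures. In addition, 10 other settings of scaling, background, probe choice and filter were run, and 3 more were chosen after seeing the data.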

Additional observations from a re-analysis of the deposited data

How the results depend on the processing

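No paired analysis was possible because each time point has a single array. Scaling each array by its median raised every log2 ratio by 0.098. The median of the 10 genes became 0.0435, and that of other actins 0.0084, myosin II 0.19, tropomyosins, calponins and transgelins 0.0239, crosslinkers 0.11, focal adhesion 0.14, filament assembly 0.0922 and SRF and coactivators -0.10. With the mean over probes the SRF median was -0.10 and Tpm1 -0.0579. With the brightest probe before loading Tpm1 was -0.0045. Of the 10 genes, 2 were more than 2 within-array errors higher under median scaling and 2 under scaling to spike-ins, against 0. Of 110 values of the 10 genes under alternatives, 108 moved by less than the within-array error. This count says little, since several settings could hardly move these genes and the error was larger than the shift of 0.098. The genes more than 2-fold higher among 2-fold calls were 26.8%, 38.8% under median scaling and 36.7% under scaling to spike-ins. Over all genes, 95 and 260 were past 2-fold higher and lower, 38 and 117 with normexp, and 492 and 983 with no filter on dim probes. Past 1.5-fold were 520 and 831, against 272 and 429, and 1305 and 2177, and 803 were higher under median scaling. Spike-in scaling, the brightest probe before loading, and the counts with an allowance for within-array error, except that on the 2-fold limit, were chosen after seeing the data. With 1 array per time point, no spread between cultures is known, and dim probes such as the second of Vcl carry the widest error.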

Other observations

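Markers of other cell types held 3 genes more than 2-fold higher at 24 h. These were 1 of 8 detected fibroblast markers and 2 of 8 detected skeletal muscle markers, with 0 in the smooth muscle, pericyte, endothelial and macrophage lists. Of all detected genes 0.668% were that much higher. Dpt, dermatopontin, a matrix protein of fibroblasts, read 59.2 before loading and 253 at 24 h, a log2 ratio of 2.10. Myh8, a myosin heavy chain of newborn skeletal muscle, read 77.4 and 172, a ratio of 1.15, and Tnnc2, a troponin of fast muscle, read 342 and 697, a ratio of 1.03. With normexp these were 1.34, 0.63 and 0.89. A second Myh8 probe, at 7.21 and 4.02, was not detected. Of 10 skeletal muscle markers 8 were detected, 4 above 0 and 4 below, with summed intensities of 6088 and 5089, of which Tnni2 was the largest part. The lowest were Tnni2, with 3348 and 1940 and a ratio of -0.79, and Tnnt3, with 585 and 339 and a ratio of -0.78, both fast muscle troponins and both more than 1.5-fold lower in all 11 alternative settings. Endothelial markers, 3 of 6 detected, summed to 12970 and 12580, of which Kdr made up 12774 and 12375. A second Kdr probe read 5.05 and 5.63 and was not detected. The 5 macrophage markers summed to 4225 and 4013, of which Csf1r made up 3646 and 3288.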
